A study of Rattus norvegicus with 6 samples.

Results

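The 7 genes described here belong to cholesterol synthesis and its control by the transcription factor SREBP2. Srebf2 encodes SREBP2, Insig1 the protein that holds SREBP2 back, and Hmgcs1, Fdft1, Sqle, Nsdhl and Dhcr7 encode enzymes of the pathway. They were chosen by name, and all 7 were found among the 22536 genes of the deposited table. RNA was sequenced from 3 male rats with painful diabetic neuropathy (PDN), the pain that can follow diabetes, and from 3 male control rats, with 1 library for each rat. The labels call the tissue sensory neuron, while the series title names the dorsal root ganglion, where the cell bodies of these neurons lie. The sources used here give no strain, no age, no way of inducing diabetes and no treatment shared by the groups. All 12 listed sensory neuron markers were present, but so were all 10 listed markers of Schwann cells and myelin and all 7 of satellite glia, so the values are those of a mixed tissue.

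Cells make cholesterol from acetyl-CoA, first through mevalonate to farnesyl diphosphate, then through squalene and lanosterol. When sterols are scarce, the escort protein SCAP carries SREBP2 from the endoplasmic reticulum to the Golgi, proteases release its active part, and that part switches on most genes of the pathway; when sterols are plentiful, INSIG proteins keep SCAP and SREBP2 in place. In peripheral nerve the pathway is known above all for supplying the myelin of Schwann cells, which is rich in cholesterol.

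The stretches before the gene starts are shown because SREBP2 is known to act there on sterol regulatory elements, together with NF-Y, which binds CCAAT boxes, and SP1, which binds GC boxes. The RefSeq promoter table of build GRCr8 held 5 of the 7 genes (Fdft1 and Sqle are not among them), and each is printed as the 250 bases before the gene start, 5′ to 3′ on the gene's strand. Capitals mark the core of the sterol regulatory element (TCACNCCA), the CCAAT box (CCAAT) and the palindromic E-box (CACGTG), each searched on both strands, so that ATTGG is a CCAAT box on the other strand. GC boxes (GGGCGG) were searched as well and are left in lower case. No match of one motif overlapped a match of another.
Srebf2, chr7:115543057-115543306, plus strand: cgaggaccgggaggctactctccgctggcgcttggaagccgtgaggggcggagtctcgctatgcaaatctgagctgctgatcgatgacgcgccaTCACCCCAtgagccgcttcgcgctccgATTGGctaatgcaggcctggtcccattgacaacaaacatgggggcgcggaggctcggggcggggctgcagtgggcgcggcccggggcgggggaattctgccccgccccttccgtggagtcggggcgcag
Insig1, chr4:8057770-8058019, minus strand: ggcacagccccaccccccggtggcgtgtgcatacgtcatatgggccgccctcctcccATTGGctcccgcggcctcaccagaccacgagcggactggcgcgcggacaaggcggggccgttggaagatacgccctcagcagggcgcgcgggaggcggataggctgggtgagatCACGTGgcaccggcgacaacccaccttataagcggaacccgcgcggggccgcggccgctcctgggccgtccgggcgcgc
Hmgcs1, chr2:53382054-53382303, plus strand: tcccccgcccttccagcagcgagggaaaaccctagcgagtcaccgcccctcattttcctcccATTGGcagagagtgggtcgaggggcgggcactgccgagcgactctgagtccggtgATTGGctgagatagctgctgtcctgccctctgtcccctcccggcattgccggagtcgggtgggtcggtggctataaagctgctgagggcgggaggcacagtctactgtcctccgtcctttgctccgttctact
Nsdhl, chrX:155817110-155817359, plus strand: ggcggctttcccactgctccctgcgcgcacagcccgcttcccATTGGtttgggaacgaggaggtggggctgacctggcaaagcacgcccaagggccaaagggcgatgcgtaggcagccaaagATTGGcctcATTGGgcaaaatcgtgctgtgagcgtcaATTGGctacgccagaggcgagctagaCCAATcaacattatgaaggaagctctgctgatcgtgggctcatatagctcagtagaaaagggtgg
Dhcr7, chr1:208444184-208444433, plus strand: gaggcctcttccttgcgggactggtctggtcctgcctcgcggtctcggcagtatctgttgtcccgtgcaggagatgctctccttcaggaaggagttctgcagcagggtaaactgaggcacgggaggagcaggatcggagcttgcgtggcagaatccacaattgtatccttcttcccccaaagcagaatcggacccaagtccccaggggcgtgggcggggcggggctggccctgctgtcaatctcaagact

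CCAAT boxes and GC boxes were each found in 4 of the 5 promoters. The CCAAT box had 5 matches in Nsdhl, 2 in Hmgcs1, 1 each in Insig1 and Srebf2 and 0 in Dhcr7, and it was in 34.0% of all 33469 promoters of the table. Among 16 synthesis enzymes with an entry, 13 held it (81.2%) and 9 held it at least 2 times, against 34.4% and 12.0% of the 10707 promoters of genes tested here. The GC box had 2 matches in Dhcr7 and 0 in Nsdhl, and it was in 30.5% of all promoters. Of the 16 enzymes 14 held it (87.5%) and 10 held it at least 2 times (62.5%), against 58.2% and 33.1% of the promoters of tested genes. The core of the sterol element was matched in Srebf2 alone among the 5, at position -156 from the gene start, and in 3.24% of all promoters. Of the 16 enzymes 1 held it (6.25%), against 2.64% of the promoters of tested genes. The E-box was matched in Insig1 alone, at position -79, and in 5.59% of all promoters. It was held by 1 of the 16 enzymes (6.25%), against 7.89% of the promoters of tested genes. The motifs were chosen after the promoters had been seen, and a match describes letters in a window and shows neither a binding site nor its use.

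**Figure D1:**
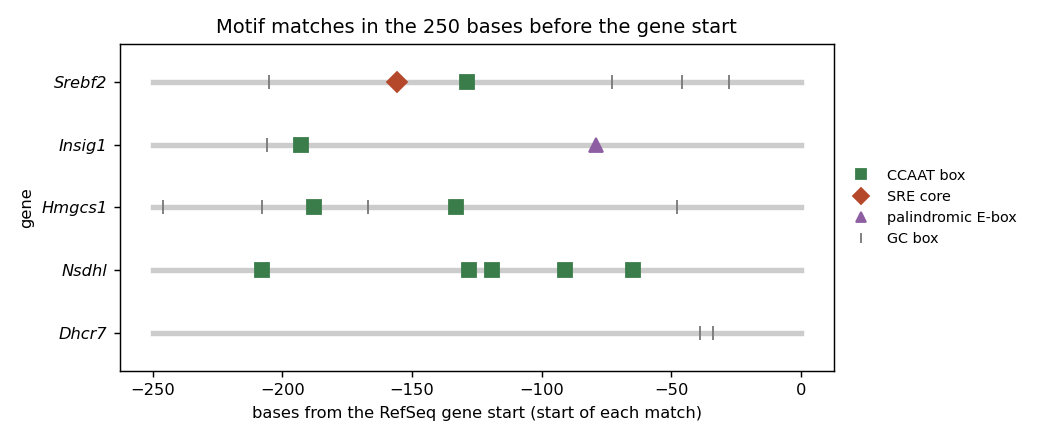
Matches of 4 motifs in the 250 bases before the RefSeq gene start of the 5 genes with a promoter entry. The x axis gives bases from the gene start, each row is a gene and each symbol the start of a match on either strand. CCAAT boxes appear in 4 of the 5 genes, with 5 in Nsdhl and 0 in Dhcr7, and GC boxes in 4 of the 5, with 0 in Nsdhl.

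None of the 7 genes passed the test between PDN and control tissue, and the genes stood at high levels in every library. FPKM (fragments scaled to transcript length and library size) of 51855000 to 62785000 fragments per library, as far as the deposited tables give it, were analysed as log2(FPKM + 1) with limma over the 13282 genes that reached 1 FPKM in 3 or more libraries. All 7 genes passed that filter. Of the 13282 genes, 0 (0%) had an adjusted p under 0.05, and 627 (4.72%) had an unadjusted p under 0.05. The smallest unadjusted p among the 7 genes was 0.0684, and their adjusted p-values in limma were 0.999 to 1. The 3 libraries of one group lay apart from those of the other in 9.93% of all tested genes (6.24% with PDN lower) and in 0 of the 7. Libraries are named by group and replicate, and skeletal muscle genes set apart control 2 (summed FPKM of 493 over 7 genes), PDN 3 (159) and PDN 1 (30.9) from the other 3 libraries (1.78 to 2.02).

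Among the control proteins, Srebf2 (ENSRNOG00000007400, chromosome 7, 123381077 to 123438603 as the file gives it, without a build) was at 57.1, 55.6 and 57.1 FPKM in PDN 1, 2 and 3, against 58.6, 55.6 and 55.6 FPKM in controls 1, 2 and 3. The groups overlap throughout, and the highest of the 6 values exceeds the lowest by a factor of 1.06. Its mean was 56.6 ± 0.898 FPKM in PDN, against 56.6 ± 1.76 FPKM in the control rats (SD, n = 3 each). The log2 fold change was -0.000406 with a 95% interval of -0.13 to 0.13, which on the FPKM + 1 scale runs from -8.82% to 9.62%. Only 0.663% of the 13282 tested genes had a smaller SD over the 6 libraries on the log2 scale, so the gene of the pathway's main activator was among the steadiest transcripts measured. The sign of a difference this small turned with the scaling and with the library left out.

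Insig1 (ENSRNOG00000006859, chromosome 4, 342302 to 350515), a target of SREBP2 whose protein closes the feedback loop, was at 89.3, 98.7 and 91.4 FPKM in PDN 1, 2 and 3, against 92.7, 99.3 and 103 FPKM in controls 1, 2 and 3. PDN 1 was the lowest and control 3 the highest library, and PDN 2 lay within the control range. The difference amounted to -0.08 ± 0.07 (SE) on the log2 scale (95% interval -0.24 to 0.09). It was -0.117 without PDN 2 and -0.116 without control 1, and it was -0.0458 without PDN 1 and -0.0434 without control 3.

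**Figure D2:**
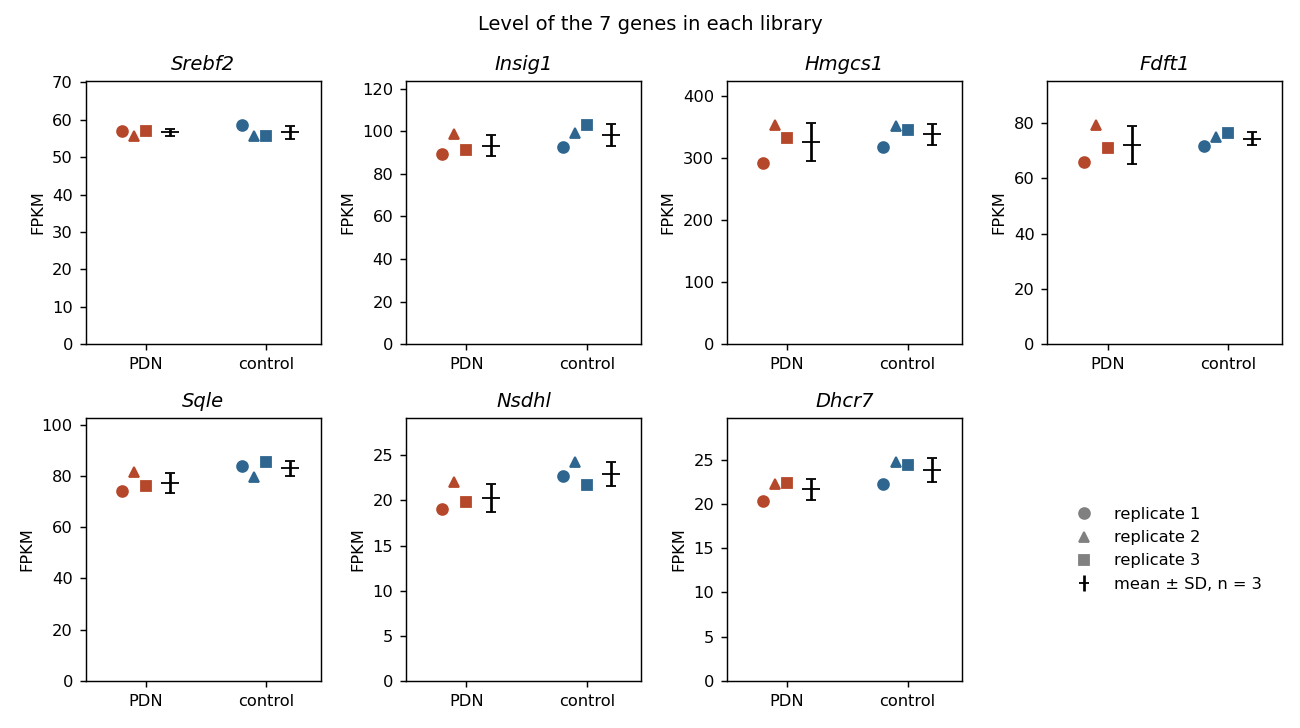
FPKM of each of the 7 genes in the 6 libraries, with axes from 0. Symbols are replicates, PDN left and control right, and the bar beside each group is its mean ± SD (n = 3). Srebf2 spans 55.6 to 58.6 FPKM, and PDN 1 is the lowest library in the other 6 genes.

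Hmgcs1 (ENSRNOG00000016552, chromosome 2, 52431601 to 52445055) encodes the cytosolic HMG-CoA synthase, which makes HMG-CoA, an early intermediate of the pathway. It was at 293, 354 and 333 FPKM in PDN 1, 2 and 3, against 319, 352 and 345 FPKM in controls 1, 2 and 3. The PDN libraries held both the lowest and the highest of the 6 values. Its fitted log2 fold change was -0.05 ± 0.09 (SE) (95% interval -0.26 to 0.15), and it was 0.0225 without PDN 1, -0.115 without PDN 2, -0.0965 without control 1 and -0.026 without control 2.

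Fdft1 (ENSRNOG00000021314, chromosome 15, 46339249 to 46367302) encodes squalene synthase, which commits farnesyl diphosphate to sterols. Its level was 65.8, 79.4 and 71.2 FPKM in PDN 1, 2 and 3, against 71.8, 75.0 and 76.3 FPKM in controls 1, 2 and 3. As with Hmgcs1, the controls fell inside the span of the PDN libraries. On the log2 scale PDN minus control came to -0.05 ± 0.08 (SE) (95% interval -0.24 to 0.14), and it was 0.0161 without PDN 1, -0.118 without PDN 2, -0.0721 without control 1 and -0.0289 without control 3.

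Sqle (ENSRNOG00000009550, chromosome 7, 99609191 to 99624732) encodes squalene epoxidase, which adds the oxygen needed for ring closure. It was at 74.0, 81.6 and 76.2 FPKM in PDN 1, 2 and 3, against 83.7, 79.7 and 85.6 FPKM in controls 1, 2 and 3. PDN 1 and PDN 3 were below all controls and PDN 2 was between them. The fitted difference was -0.10 ± 0.06 (SE) in log2 units (95% interval -0.25 to 0.05).

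Nsdhl (ENSRNOG00000057814, chromosome X, 152933069 to 152964390) encodes a sterol dehydrogenase that takes part in removing methyl groups after lanosterol. It was at 19.0, 22.0 and 19.8 FPKM in PDN 1, 2 and 3, against 22.7, 24.3 and 21.7 FPKM in controls 1, 2 and 3. PDN 2 lay above control 3, so the groups overlap. Nsdhl had the most negative estimate of the 7 genes, a log2 fold change of -0.17 ± 0.08 (SE), with a 95% interval of -0.35 to 0.02 (adjusted p in limma 0.999).

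Dhcr7 (ENSRNOG00000020776, chromosome 1, 217018916 to 217034904) encodes 7-dehydrocholesterol reductase, the last step of one of the routes to cholesterol. Its level was 20.3, 22.3 and 22.4 FPKM in PDN 1, 2 and 3, against 22.3, 24.8 and 24.4 FPKM in controls 1, 2 and 3. PDN 2 and PDN 3 lay level with control 1 and below the other 2 controls, and PDN 1 was the lowest library. The log2 difference between the groups was -0.13 ± 0.07 (SE) (95% interval -0.30 to 0.04), and it was -0.0867 without PDN 1.

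All 7 estimates were below 0, with a median log2 fold change of -0.08, where 56.6% of all tested genes had an estimate below 0 and their median was -0.0163. The count became 6 with median-of-ratios or upper-quartile scaling and 5 without PDN 1, and with single libraries left out the median lay between -0.118 and -0.043. The widest of the 7 intervals on the lower side, that of Nsdhl, reached -21.7% on the FPKM + 1 scale, and on the upper side the highest bound was 11.2%, for Hmgcs1. Nothing in these data separates fewer cells of a type from less RNA per cell.

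PDN 1 stood at the low end for most of these genes. It was the lowest library for 6 of the 7 genes, all but Srebf2, and for 13 of 20 synthesis enzymes (65.0%), against 27.9% of all tested genes. With median-of-ratios scaling, which lowers that background to 20.9%, it was lowest for 5 of the 7 genes and 11 of the 20 enzymes. This alternative was chosen after seeing the data. At the other end, control 2 was the highest library for 12 of the 20 enzymes (60.0%), against 23.8% of all tested genes, and for 2 of the 7 genes. With median-of-ratios scaling it was highest for 8 of the 20 enzymes (40.0%), against 18.0% of all tested genes, and for 1 of the 7 genes.

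Averaged over the 7 genes, the centred log2(FPKM + 1) was -0.122, 0.0379 and -0.0406 in PDN 1, 2 and 3, against 0.00469, 0.0623 and 0.0572 in controls 1, 2 and 3. PDN 2 stood with the controls, between control 1 and control 3. The 15 synthesis enzymes outside the 7 genes had means of -0.153, 0.121 and -0.0546 in PDN 1, 2 and 3, against -0.0991, 0.147 and 0.0387 in controls 1, 2 and 3. In them the low libraries were PDN 1, PDN 3 and control 1, and the high ones PDN 2 and control 2, so each group held libraries of both kinds.

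Cell type markers moved between libraries as well. The mean over 12 sensory neuron markers was 0.0823, -0.0773 and 0.00147 in PDN 1, 2 and 3, against 0.0901, -0.101 and 0.00436 in controls 1, 2 and 3. It was highest in PDN 1 and control 1, which were low for the 15 enzymes, and lowest in PDN 2 and control 2, which were high for them. Schwann cell and myelin markers did not share that order, with -0.107, -0.12 and 0.253 in PDN 1, 2 and 3, against -0.0573, 0.151 and -0.12 in controls 1, 2 and 3. Their mean in PDN 3 includes Ncmap, which was at 52.3 FPKM there and at 12.0 to 18.6 FPKM in the other libraries. Satellite glia markers were at -0.182, -0.18 and -0.00121 in the PDN libraries and at 0.117, 0.28 and -0.0343 in the controls. For these 3 lists the summed FPKM was 8850 to 10000 in PDN and 9050 to 10400 in controls (neurons), 3520 to 4280 in PDN and 3580 to 4380 in controls (Schwann cells), and 229 to 242 in PDN and 231 to 282 in controls (satellite glia), with 0 markers listed at 0. Of the 7 satellite glia markers 6 had an estimate below 0 (56.6% of all tested genes had one), with a median log2 fold change of -0.29. Among them Kcnj10, Gfap and Ptprz1 were lower in every PDN library than in any control, as were 6.24% of all tested genes. These 3 had an unadjusted p under 0.05 (adjusted p in limma 0.999), a level at which 2.89% of all tested genes were lower in PDN. Glul, which makes up the largest share of the summed FPKM, was at 107 ± 20.4 FPKM in PDN and 102 ± 4.52 FPKM in controls (SD, n = 3 each). Of the 12 neuron markers, 2 (Isl1 and Uchl1) were higher in every PDN library than in any control. Of the 10 Schwann cell and myelin markers, 1 (Mag) was lower, though PDN 3 and control 3 both round to 4.39 FPKM. Groups lay apart in either direction in 9.93% of all tested genes. The part of these cells in the levels of the 7 genes was not tested.

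**Figure D3:**
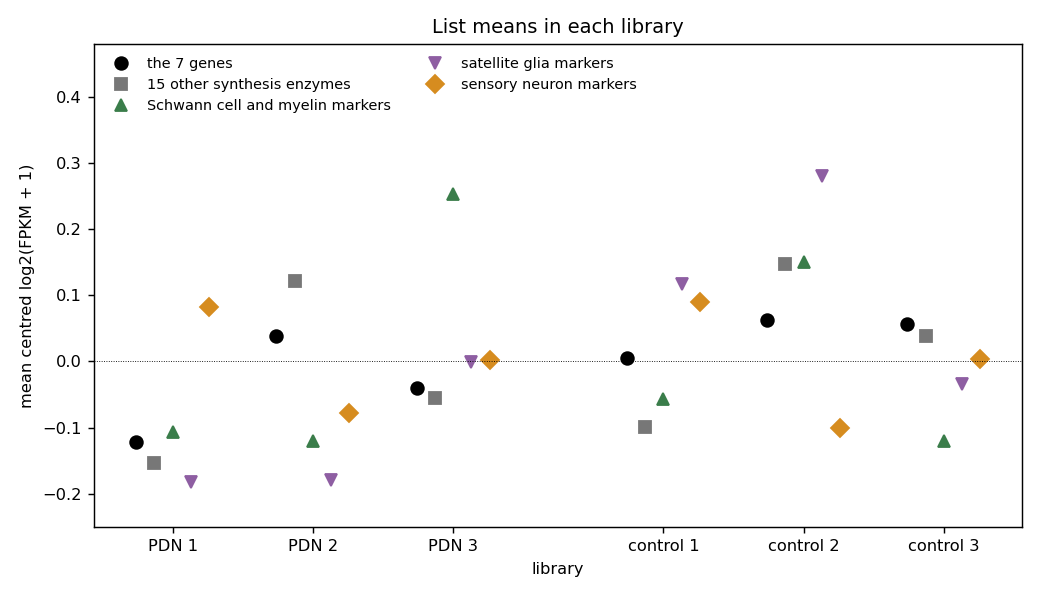
Mean of log2(FPKM + 1), centred on the 6 libraries, for the 7 genes, 15 other synthesis enzymes and 3 lists of cell type markers, with PDN libraries left and control libraries right. The 7 genes lie between -0.122 in PDN 1 and 0.0623 in control 2, and PDN 2 lies among the controls.

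The levels of the 7 genes kept nearly the same order in all 6 libraries. Averaged over the libraries, Hmgcs1 was at 333 FPKM, Insig1 at 95.7, Sqle at 80.1, Fdft1 at 73.2, Srebf2 at 56.6, Dhcr7 at 22.7 and Nsdhl at 21.6 FPKM. Hmgcs1 exceeded 99.3% of all tested genes in its mean level, and Nsdhl, at the low end, exceeded 73.7%. Within each library Hmgcs1 was 3.28 to 3.64 times as high as Insig1, and Srebf2 was 2.24 to 2.82 times as high as Dhcr7. Sqle lay above Fdft1 in 6 of 6 libraries, but their ranges over the libraries overlapped. Dhcr7 and Nsdhl were the other neighbours with overlapping ranges, with Dhcr7 higher in 5 of 6 libraries.

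**Figure D4:**
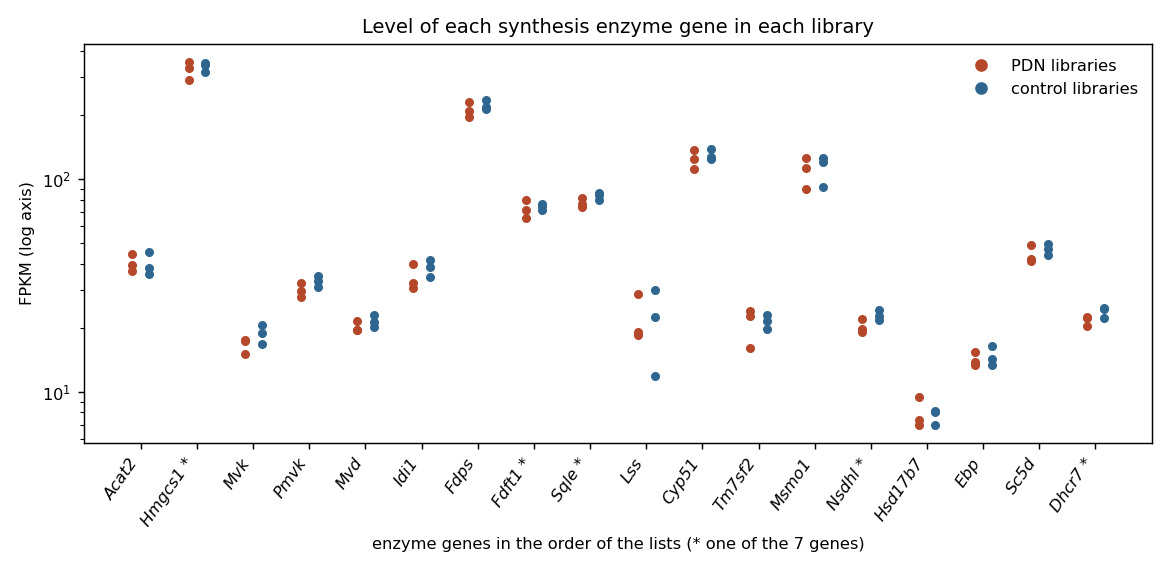
FPKM of 18 synthesis enzyme genes in each library on a log axis, in the order of the lists from acetyl-CoA to cholesterol, with PDN libraries left of control libraries for each gene. Levels range from 6.99 FPKM for Hsd17b7 to 354 FPKM for Hmgcs1, and the ranges of PDN and control libraries overlap in all 18 genes drawn.

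Ratios within a library, which do not depend on its scaling beyond the added constant, were compared for 4 pairs, of which 3 are given, by an exact two-sided permutation test. With 3 libraries against 3 that test cannot give a p below 0.1. Srebf2 was 2.93, 3.59 and 2.47 times as high in FPKM as Srebf1, the gene of the SREBP that mainly serves fatty acid synthesis, in PDN 1, 2 and 3, against 2.56, 2.34 and 2.48 times in controls 1, 2 and 3. PDN 2 had the highest ratio, PDN 3 was within the control range, and the mean log2 difference between PDN and control was 0.26 (exact permutation p = 0.3, adjusted over the 4 pairs 0.667). That difference was 0.124 without PDN 2 and 0.382 without PDN 3. Insig1 was 11.0, 11.4 and 9.80 times as high as its relative Insig2 in the PDN libraries, against 9.73, 9.95 and 11.6 times in the controls (log2 difference 0.03, exact permutation p = 0.9, adjusted 0.9). The sign of that difference turned without PDN 2 (-0.0162) or control 1 (-0.0169). Sqle against Fdft1 differed by -0.05 (exact permutation p = 0.5, adjusted 0.667), with -0.0887 without PDN 1, -0.0891 without control 2, -0.023 without PDN 2 and -0.0244 without control 1.

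The other genes of the pathway likewise did not pass the test at an adjusted p under 0.05. Of 21 listed synthesis enzymes 20 were found and tested, and 17 had an estimate below 0 and 3 above it (85.0% below, against 56.6% of all tested genes), with a median log2 fold change of -0.07. At an unadjusted p under 0.05 there were 0 of these 20, against 4.72% of all tested genes. Among the 8 mevalonate genes 7 estimates were below 0. Pmvk, phosphomevalonate kinase, was at 30.0 ± 2.18 FPKM in PDN and 33.2 ± 1.96 FPKM in controls, Mvk, mevalonate kinase, at 16.7 ± 1.41 in PDN and 18.7 ± 1.91 in controls, and Idi1, an isomerase, at 34.4 ± 4.82 in PDN and 38.2 ± 3.59 in controls (SD of 3 libraries each).

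After squalene, 10 of 12 estimates were below 0. Sc5d, a desaturase, was at 44.0 ± 4.37 FPKM in PDN and 46.8 ± 2.78 FPKM in controls, and Cyp51, the lanosterol demethylase, at 124 ± 13.3 in PDN and 130 ± 8.21 in controls (SD of 3 libraries each). Lss, which closes the sterol rings, varied most among the 20 enzymes, with 18.4, 28.9 and 19.1 FPKM in PDN 1, 2 and 3, against 11.8, 30.2 and 22.4 FPKM in controls 1, 2 and 3. Its highest library exceeded its lowest by a factor of 2.55, both were controls, and 97.4% of all tested genes had a smaller SD. The log2 fold change of Lss was 0.10, with a 95% interval of -0.65 to 0.85, and it was -0.255 without control 1 and -0.0974 without PDN 2.

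Of the 10 genes of SREBP control, 9 had an estimate below 0, with 0 at an unadjusted p under 0.05. Srebf1 was at 19.4, 15.5 and 23.2 FPKM in PDN 1, 2 and 3, against 22.9, 23.7 and 22.4 FPKM in controls 1, 2 and 3. PDN 3 was within the control range and the other PDN libraries were below it (log2 fold change -0.26, 95% interval -0.57 to 0.05). Its estimate was -0.112 without PDN 2 and -0.389 without PDN 3. Scap, the escort, was at 26.2 ± 0.984 FPKM in PDN and 26.8 ± 1.16 FPKM in controls. Insig2 was at 8.70 ± 0.598 in PDN and 9.44 ± 0.590 in controls, and Rnf139, a ubiquitin ligase of the endoplasmic reticulum, at 9.54 ± 0.654 in PDN and 10.5 ± 0.964 in controls (SD of 3 libraries each).

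Uptake and intracellular transport had 7 of 10 estimates below 0 and 0 genes at an unadjusted p under 0.05. Stard4, a sterol carrier, was at 12.2 ± 0.945 FPKM in PDN and 13.8 ± 1.12 FPKM in controls, Stard3, a sterol transporter of late endosomes, at 14.5 ± 0.888 in PDN and 15.3 ± 0.779 in controls, and the oxysterol-binding protein gene Osbp at 27.5 ± 0.315 in PDN and 29.4 ± 1.24 in controls (SD of 3 libraries each). In the isoprenoid branch, which leads from the same precursors to dolichol, ubiquinone and prenylated proteins, 6 of 8 estimates were below 0. Dhdds, of dolichol synthesis, was at 18.7 ± 0.419 FPKM in PDN and 20.7 ± 0.979 FPKM in controls. Coq2, of ubiquinone synthesis, was at 12.6 ± 0.878 in PDN and 11.5 ± 0.355 in controls, and Fntb, a farnesyltransferase subunit, at 16.4 ± 1.64 in PDN and 17.8 ± 1.60 in controls (SD of 3 libraries each).

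Cholesterol export, esterification and the LXR receptors, which oppose SREBP2 by answering sterol excess, held all 5 of the 60 pathway genes with an unadjusted p under 0.05. Of the 12 genes, 3 were lower in PDN at that level, against 2.89% of all tested genes, and 2 were higher, against 1.83%, and their adjusted p-values in limma were 0.999. Cyp46a1, which makes 24-hydroxycholesterol in neurons, was at 2.18, 2.34 and 2.64 FPKM in PDN 1, 2 and 3, against 3.42, 2.83 and 3.24 FPKM in controls 1, 2 and 3. Every PDN value lay below the controls, with a log2 fold change of -0.30 and a 95% interval of -0.53 to -0.06. Abca1, the cholesterol exporter, was at 26.1, 22.5 and 30.8 FPKM in PDN 1, 2 and 3, against 33.4, 30.5 and 31.7 FPKM in controls 1, 2 and 3, and PDN 3 overlapped the controls. Ch25h, which makes 25-hydroxycholesterol, stood the other way, at 2.82, 3.51 and 2.43 FPKM in PDN 1, 2 and 3, against 2.32, 1.61 and 2.28 FPKM in controls 1, 2 and 3. Mylip, a ubiquitin ligase gene and a target of LXR, was at 7.04 ± 0.885 FPKM in PDN and 8.40 ± 0.443 FPKM in controls, and Nr1h2, the gene of LXR-beta, at 26.7 ± 0.824 in PDN and 23.9 ± 1.13 in controls (SD of 3 libraries each), both named after their values were seen. Ch25h is also known as an immune-induced gene of macrophages, whose markers summed to 25.1 to 35.3 FPKM in PDN and 35.0 to 48.8 FPKM in controls over 7 tested genes. Of those 7 markers 4 were lower in PDN at an unadjusted p under 0.05, as were 3 of the 7 satellite glia markers, and the part of either cell type in the values of these export genes was not tested.

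**Figure D5:**
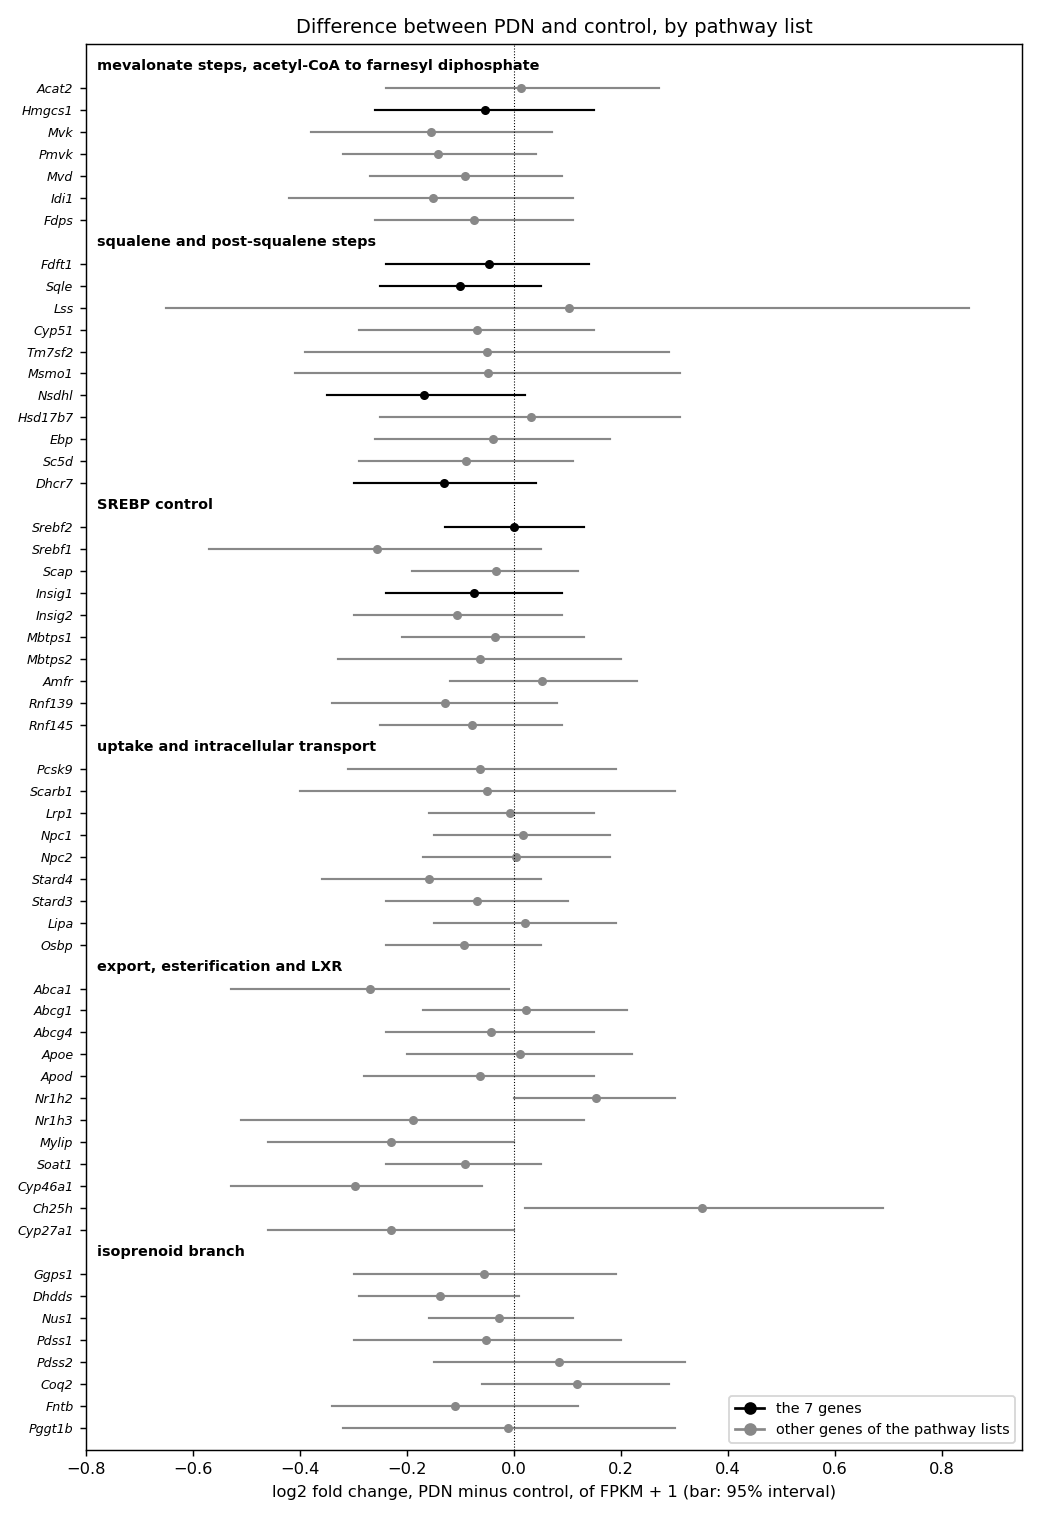
Log2 fold change of FPKM + 1, PDN minus control, with its 95% interval for 57 tested genes of the 6 pathway lists, the 7 genes in black and the others in grey. The 7 intervals all cover 0, and Lss has the widest interval, from -0.65 to 0.85.

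The genes whose pattern over the 6 libraries was most like the mean of the 7 were Psmd1, Ndufaf4, Ltv1, Cdnf and Snapin, with a Pearson correlation of 0.983 to 0.992 and a Spearman correlation of 1 over the 6 libraries, among 13275 other tested genes. Srebf2 itself did not follow the rest of the 7, with a Pearson correlation of -0.57 with their mean. The other members had 0.75 to 0.87, each with the mean of the remaining members. The 53 pathway genes outside the 7 made up 0.399% of the genes compared, and 0 of them were among the 100 most alike. At so small a share, a count of 0 in 100 does not set them apart from other genes. The first of them was Nr1h3, the gene of LXR-alpha, at rank 115 of 13275. Idi1 followed at rank 184, Fdps at rank 274 and Sc5d at rank 312. At rank 115 the Pearson correlation was still 0.943, so over 6 libraries many genes are this alike, and the measure is given as a description.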

How the data were processed

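Per the labels' protocols, Trizol RNA from each rat (1 µg of total RNA) went into strand-specific libraries. The authors deposited FPKM per gene. Aligner, quantifier and build were not given in the sources used here. A second deposited table, named for read counts, was treated as a score: 54.5% to 54.8% of its values above 1000 equal, within a relative tolerance of 0.001, FPKM times genomic span times 1 constant per library, and library totals were 573396748 to 684759626. Fragments per library were derived from those constants, and no counting interval was computed.

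FPKM was fitted as log2(FPKM + 1) with limma 3.58.1 (R 4.3.3), with an intensity trend and the group as the only term, with Benjamini-Hochberg adjustment over all 13282 genes tested and 0.05 as threshold. Ratios were tested with SciPy 1.17.1. Fold changes are PDN minus control and understate the change of low genes. The limma fit was tested on simulated data. The design text counts 3 rats per group, so each library was taken as 1 animal. The 7 genes, the 6 pathway lists, the marker lists and the tests were chosen with earlier results of these data known. Named beside the 7 genes were up to 3 genes per list with the smallest p, and a set of others that included Srebf1, Insig2, Scap and Lss. Of the genes under this rule, 3 are not reported here, and they stay in the counts. Lbr was not analysed here. Of the marker lists, red blood cell genes summed to 74.3 to 177 FPKM in PDN and 157 to 232 FPKM in controls (3 tested genes), and adipocyte genes to 3.92 to 4.73 FPKM in PDN and 3.62 to 5.45 FPKM in controls (2 tested genes). The alternatives were other pseudocounts, filters, scalings, weights, a replicate block, the whole-number table and leaving out libraries.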

Additional observations from a re-analysis of the deposited data

How the results depend on the processing

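Over 16 alternatives, 0 of the 7 genes and 0 of the 60 pathway genes passed an adjusted p of 0.05 in limma. The count of called genes, 0 of 13282, became 1 without the filter, 1 without the intensity trend and 2 in the whole-number table. It became 9 with the libraries highest in muscle genes (control 2 and PDN 3) left out, which kept PDN 1 (summed FPKM 30.9). With single libraries left out it lay between 0 and 6, with 4 without PDN 1, 6 without PDN 3, 3 without control 1 and 2 without control 3. The cause was not tested. The median of the 7 genes stayed below 0 in all 16 alternatives, from -0.118 to -0.043. Estimates turned sign for Srebf2 with median-of-ratios scaling (0.0217), upper-quartile scaling (0.0172), array weights (0.00898) and the whole-number table (0.0215), and without PDN 2 (0.0126) or control 1 (0.0248); over the single libraries left out its estimate lay between -0.0133 and 0.0248. They did so without PDN 1 for Hmgcs1 (0.0225), Fdft1 (0.0161) and Cyp51 (0.0101, otherwise down to -0.144 without PDN 2), and for Lss without PDN 2 (-0.0974) or control 1 (-0.255; up to 0.385 without control 2). The PDN minus control difference in the log2 ratio of Insig1 to Insig2 ran from -0.0169 to 0.106 over the single libraries left out.

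The labels give same-numbered PDN and control libraries a shared number and state no pairing. Correlations of their deviations from the group mean were 0.171, -0.12 and -0.086 for replicates 1, 2 and 3. Between libraries of different number they ran from -0.219 to 0.269. With 3 libraries per group these values cannot show whether same-numbered libraries share a batch, which was not tested. With a replicate block 0 genes were called, and the median of the 7 genes was -0.075. Depth in fragments per gene is unknown.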
